A study of Mus musculus with 13 samples.

Results

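Histone methyltransferases are enzymes that place methyl groups on histones. Those described here act on lysines, and the position of the lysine decides how the mark is read. Methylation of H3K4 marks promoters and enhancers that are in use, of H3K36 and H3K79 the bodies of transcribed genes, and of H3K27 and H3K9 silenced chromatin. Several of these genes are among the well-known mutated genes of human leukaemia, and Kmt2a, as a partner in gene fusions, is a classic driver of acute leukaemia. The 10 genes described here, of 21631 protein-coding mouse genes, were Kmt2a, Kmt2b, Kmt2c and Kmt2d (H3K4), Ezh1 and Ezh2 (H3K27), Setd2 and Nsd1 (H3K36), Dot1l (H3K79) and Setdb1 (H3K9). They were picked by name from whole-genome variant tables whose content was already known, so where calls fell in them is a description and not a test. Every deposited single-base variant (SNV), short insertion or deletion (INDEL) and copy number row whose gene field held 1 of the 10 names was taken.

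The DNA came from bone marrow GFP+ cells of C57BL/6 mice with a labelled age of 8 to 10 weeks. N-Myc was overexpressed from a retrovirus that marks cells with GFP, and the Empty control carried the construct without N-Myc. There were 7 libraries, 1 per group. The B-ALL library held B220+GFP+ cells, the T-ALL library CD3+GFP+ cells, the AML library Mac1+Gr1+GFP+ cells, and the AUL library GFP+ cells without B220, CD3, Mac1 or Gr1. The mixed phenotype leukaemia was sorted into a Mac1/Gr1+ fraction (M-MPAL) without B220 or CD3/4/8, and a CD3/4/8+ fraction (T-MPAL) without Mac1/Gr1 or B220. The first 4 libraries were made from 2000000 cells each, and both MPAL fractions and the Empty control from 1000000 each. The sources used here give neither the number of mice behind a library nor whether both MPAL fractions came from 1 mouse. Gates cannot be checked against marker genes in DNA. No matched normal DNA is named, so inherited and acquired variants cannot be told apart.

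Over chromosomes 1 to 19 and X, each library listed 36405 to 47449 SNVs and 92306 to 132408 INDELs, and the median INDEL rested on 15 or 16 reads. The variant tables list called sites only, so the reads at a site with no call are unknown. With 1 library per group there is no replicate spread and no test between groups. Intervals are exact 95% intervals, Poisson for counts and Clopper-Pearson for shares of reads, and cover counting error only.

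The 10 genes, 737 kb in all, held 168 rows, which were 92 distinct calls at 75 positions. Introns held 86 of the 92, coding exons 4 and splice boundaries 2, and none was annotated to a UTR or to flanking sequence. Of the 92, 7 were SNVs and 85 were INDELs. The B-ALL library had 22 rows (13.8 to 33.3), T-ALL 31 (21.1 to 44), AML 26 (17 to 38.1), AUL 27 (17.8 to 39.3), M-MPAL 26 (17 to 38.1), T-MPAL 17 (9.9 to 27.2) and the Empty control 19 (11.4 to 29.7). T-ALL was highest and T-MPAL lowest, and the 7 intervals overlapped. Per 10000 INDELs of the library, the 10 genes took from 1.6 (B-ALL) and 1.63 (T-MPAL) through 1.78 (AML), 2.01 (AUL) and 2.11 (T-ALL) to 2.48 (M-MPAL). The Empty control, at 1.8 (1.06 to 2.84), lay among the leukaemia libraries.

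**Figure D1:**
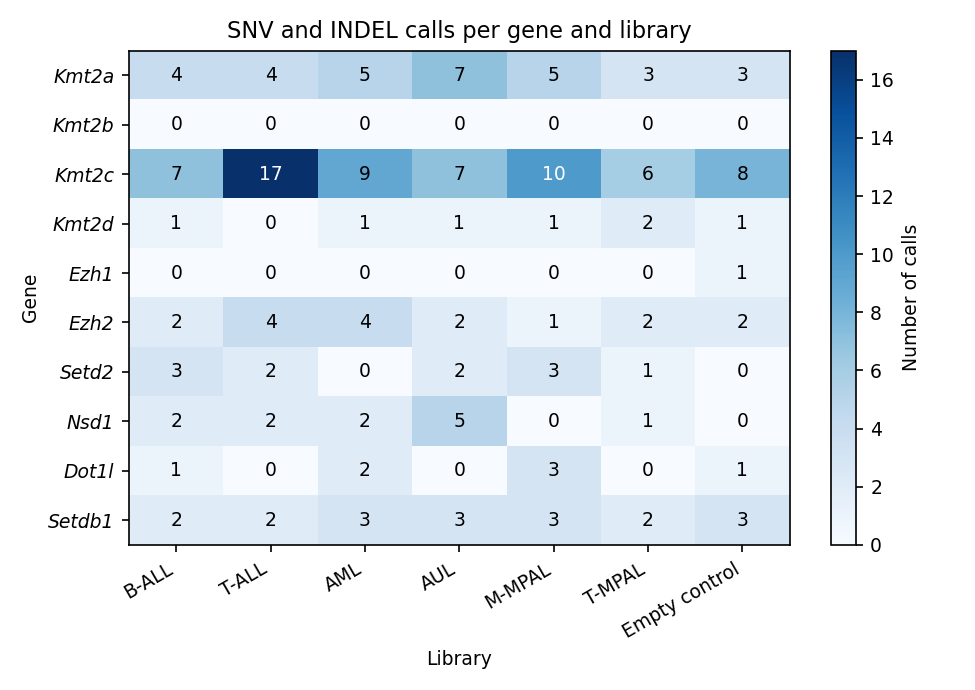
Number of SNV and INDEL rows for each of the 10 genes (vertical axis) in each of the 7 libraries (horizontal axis), with the count printed in each cell. Kmt2c held the most rows in T-ALL (17), Kmt2b held 0 in every library, and Ezh1 held 1, in the Empty control.

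A call is named private where a library had at least 10 reads at it and none of the other 6 libraries listed the same position and allele at any depth. Protein-altering means missense, stop-gain, stop-loss or splicing SNVs and exonic or splicing INDELs, as annotated in the deposited tables. The 6 leukaemia libraries together held 5 private protein-altering calls (1.62 to 11.7). They lay in Setd2, Kmt2c, Kmt2d and Ezh2, which are 4 of the 10 genes. The Empty control, 1 library, held 0 (0 to 3.69), and the intervals overlapped. It did list a splicing deletion in Ezh2, which was not private because T-MPAL listed the same allele. Over all protein-coding genes, 0.883% had a private protein-altering call in at least 1 leukaemia library (191 of 21631). The genes were picked with these calls known, so nothing is read from the higher share. By library, M-MPAL had 2 of the 5 calls, T-MPAL, B-ALL and AML had 1 each, and T-ALL and AUL had 0. The share of all genes with such a call was lowest in B-ALL (0.116%) and M-MPAL (0.12%), followed by AML (0.134%), the Empty control (0.143%), T-MPAL (0.157%), T-ALL (0.176%) and AUL (0.291%).

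The H3K4 methyltransferases Kmt2c and Kmt2d scaffold the complexes that methylate enhancers. They held 3 of the 5 calls, each an in-frame deletion of 1 glutamine codon from a run of glutamine codons. The first 30 bases of each reference run are printed because the calls are changes of length within them. Each is the chromosome's plus strand in mm10, read from the deposited reference alleles, and both genes lie on the minus strand, so that CTG here is the codon CAG. Capitals mark the 3 bases absent from the called allele. Which repeat unit is lost cannot be told, and the call is placed at the left end of the run.

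Kmt2d, T-MPAL, chr15:98845131-98845160: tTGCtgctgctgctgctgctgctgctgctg

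Kmt2d, M-MPAL, chr15:98849587-98849616: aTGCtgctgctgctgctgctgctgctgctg

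Kmt2c, B-ALL, chr5:25315757-25315786: aGCTgctgctgctgctgttgctgctgctgc

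The T-MPAL deletion in Kmt2d lies in exon 40 at residues 4048 to 4049 and in a stretch where 20 of 20 codons encode glutamine. The alternative allele was on 5 of 42 reads, a share of 11.9% (3.98 to 25.6), with 3 forward and 2 reverse reads and quality 61. Quality is the caller's score for the site, for which the tables list no value under 20. The M-MPAL deletion in Kmt2d is a different site, in exon 35 at residues 3284 to 3285, with glutamine at 16 of 17 codons. Its share was 15.2% (5.11 to 31.9), from 5 of 33 reads, with 1 forward and 4 reverse reads and quality 26.2. The B-ALL deletion in Kmt2c lies in exon 36 at residues 1784 to 1785, with glutamine at 15 of 15 codons. Its run has 5 identical units before a differing codon, as printed. It had 3 of 24 reads, all 3 reverse, a share of 12.5% (2.66 to 32.4) and quality 22.4. All 3 deletions therefore rested on 3 to 5 alternative reads in runs of 5 to 16 identical units, and all 3 upper bounds lay below 50%.

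Kmt2c is the longest of the 10 genes (227 kb on chr5, 25271795 to 25498855) and held 37 of the 92 distinct calls. T-ALL listed 17 of its rows, M-MPAL 10, AML 9, the Empty control 8, B-ALL and AUL 7 each, and T-MPAL 6. T-ALL stood highest, and 8 of its Kmt2c calls were private, each an intronic deletion with 3 to 5 alternative reads.

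Kmt2c also held SNVs. Those at 25290091 (T-ALL, 3 of 3 reads) and 25482739 (AUL, 3 of 5, and B-ALL, 4 of 10) lay in annotated repeats. Another, an intronic A-to-G SNV at chr5 25327067, lay outside annotated repeats and was not listed in dbSNP. It was called in both MPAL fractions and in no other library. The M-MPAL share was 11 of 28 reads, or 39.3% (21.5 to 59.4) with quality 184. The T-MPAL share was 13 of 24 reads, or 54.2% (32.8 to 74.4) with quality 171. The intervals overlapped and both included 50%. The only other call in the 10 genes that both MPAL fractions shared and no other library held was an INDEL in Kmt2c, at 25464904. It removes an AC unit from a tract of 16 units, is listed in dbSNP, and had 4 alternative reads of 21 in M-MPAL against 6 of 19 for T-MPAL. The AML and B-ALL libraries shared no call that the other libraries lacked.

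**Figure D2:**
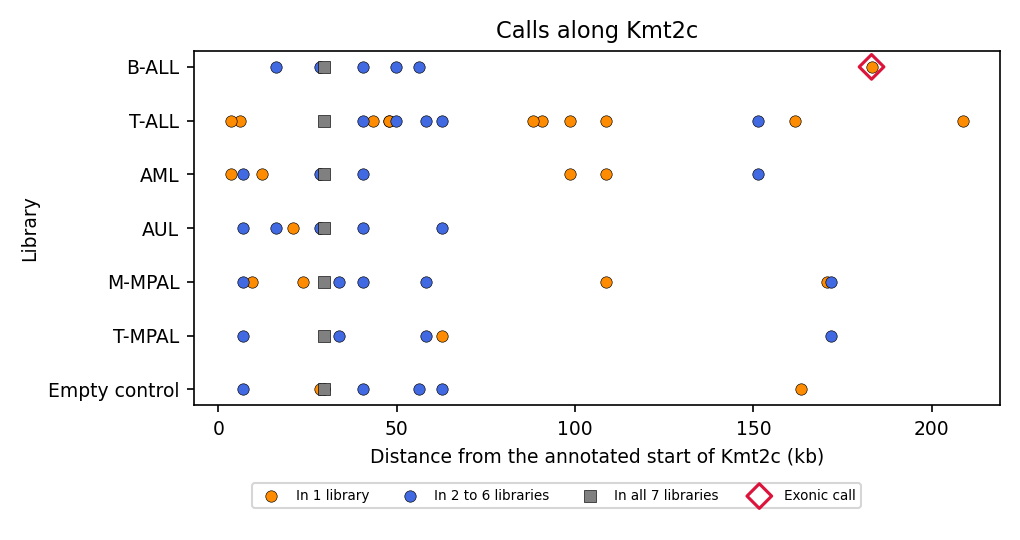
Position of each Kmt2c call as distance from the annotated start of the gene in kb (horizontal axis) for each of the 7 libraries (vertical axis), with orange circles for calls in 1 library, blue circles for calls in 2 to 6 libraries and grey squares for the call in all 7. The diamond marks the exonic deletion in B-ALL, and T-ALL shows the most calls (17 rows).

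At 1 place in a Kmt2c intron, 3 libraries called 3 different lengths of the same CT tract of 23 units. The AML library lacked 1 unit on 4 of 9 reads, M-MPAL lacked 2 units on 6 of 13, and T-ALL lacked 3 units on 3 of 12. The first 30 bases of the reference tract are printed, with the 3 units that T-ALL lacked in capitals.

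Kmt2c, chr5:25390089-25390118: cCTCTCTctctctctctctctctctctctc

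Kmt2d (42.4 kb on chr15, 98831669 to 98874077) held 5 distinct calls. Beside both coding deletions, T-MPAL alone listed an intronic loss of 1 T from a run of 15, called homozygous. The alternative allele was on 21 of 22 reads, a share of 95.5% (77.2 to 99.9), with quality 26.8. In the reference the lost base is in capitals.

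Kmt2d, T-MPAL, chr15:98838926-98838941: cTtttttttttttttt

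The Empty control had 1 call in Kmt2d, a CA unit lost from an intronic tract on 6 of 19 reads. The remaining Kmt2d call, an intronic T-to-C SNV at 98870487, was listed by B-ALL on 4 of 5 reads, AML on 2 of 5 and AUL on 4 of 9. None of the 3 had 10 reads counted there, so the counts do not separate their shares. Raw depth, before reads were dropped from the count, was 9 in B-ALL and 22 in both AML and AUL.

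Kmt2a, the founding H3K4 methyltransferase of this family and the fusion partner in human leukaemia, held 12 distinct calls in 78 kb on chr9, 44803355 to 44881352, and all 12 were intronic. Rows numbered 3 to 7 in each library, with 3 in the Empty control. Both of its calls shared by all 7 libraries were homozygous in each. They were a deletion at 44828415 on 16 to 24 reads and an insertion of GG at 44831690 on 9 to 42 reads, both listed in dbSNP. At 44827956, an AG tract of 25 units carried 3 different lengths. The B-ALL library lacked 2 units on 4 of 10 reads, the Empty control lacked 1 on 5 of 12, and T-ALL gained 1 on 5 of 8. The tables hold no structural rearrangements, so fusions of Kmt2a are not analysed here.

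Kmt2b (20.2 kb on chr7, 30568855 to 30589056) had no call in any library. Of 3099 protein-coding genes of 15 to 25 kb, 627 (20.2%) likewise had none, and for Kmt2b a count of 0 allows up to 18.3 calls per 100 kb.

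Ezh2 and Ezh1 are the alternative catalytic subunits of Polycomb repressive complex 2, which methylates H3K27. Ezh2 (65 kb on chr6) held 10 distinct calls, and the 2 splicing calls among the 10 genes were both there, at 47556152. The tract is a run of GA of 14 units, of which AML gained a unit and T-MPAL and the Empty control each lost a unit. The first 30 bases of the reference are printed, with the unit lost by T-MPAL and the Empty control in capitals. The AML allele repeats the same unit once more.

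Ezh2, reference, chr6:47556152-47556181: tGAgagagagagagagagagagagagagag

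The insertion was on 4 of 19 reads in AML, a share of 21.1% (6.05 to 45.6) with quality 20.4. The deletion was on 5 of 15 reads in T-MPAL, a share of 33.3% (11.8 to 61.6) with quality 48.5. In the Empty control it was on 4 of 15 reads, all 4 reverse, a share of 26.7% (7.79 to 55.1) with quality 22.7. The 3 intervals overlapped, and the Empty control carried a change of the same tract. The deposited annotation ties the insertion to exon 6 and the deletion to no exon. The alleles begin and end with the same letters and differ in tract length. Ezh2 had 4 rows in T-ALL and in AML, 1 in M-MPAL and 2 in each of the others, including the Empty control. At an AC tract of 29 units at 47556472, the B-ALL, T-ALL and AML calls rested on 1, 1 and 2 counted reads. Raw depths there were 21, 21 and 19.

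Ezh1 had a single call, in the Empty control: a TG unit lost from an intronic tract, with 4 of 23 reads and quality 27.9. None of the 6 leukaemia libraries listed a call in it.

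Setd2 is the methyltransferase that trimethylates H3K36 behind elongating RNA polymerase. The M-MPAL library carried the only stop codon called in the 10 genes, Q1643X in exon 8 (coding change C4927T, at chr9 110564658). The change is at the first position of a glutamine codon. Of 33 reads, 10 carried it, a share of 30.3% (15.6 to 48.7), and these were 4 forward and 6 reverse reads at a mapping quality of 48. The interval ended just below 50%. The raw depth was also 33, so no read was dropped between raw depth and the counted reads. At the 3 glutamine codon deletions raw depth was 28 to 59 for 24 to 42 counted reads. The stop site is not in an annotated repeat, and its quality of 151 was the only value of at least 100 among 44 private calls in the 10 genes. T-MPAL did not list it, and the reads of T-MPAL at that base are unknown. No copy number row lay within 13.6 Mb of Setd2 in M-MPAL.

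The rest of Setd2 (86.1 kb on chr9, 110532500 to 110618633) held 8 intronic INDELs. With the stop, B-ALL and M-MPAL listed 3 rows each in Setd2, T-ALL and AUL 2 each, T-MPAL 1, and AML and the Empty control 0. The T-MPAL call gained an AC unit on 4 of 13 reads at 110580233, where AUL lost a unit on 7 of 19. At 110590121 an AT unit was lost in B-ALL on 3 of 14 reads, in T-ALL on 8 of 27 and in M-MPAL on 4 of 16.

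**Figure D3:**
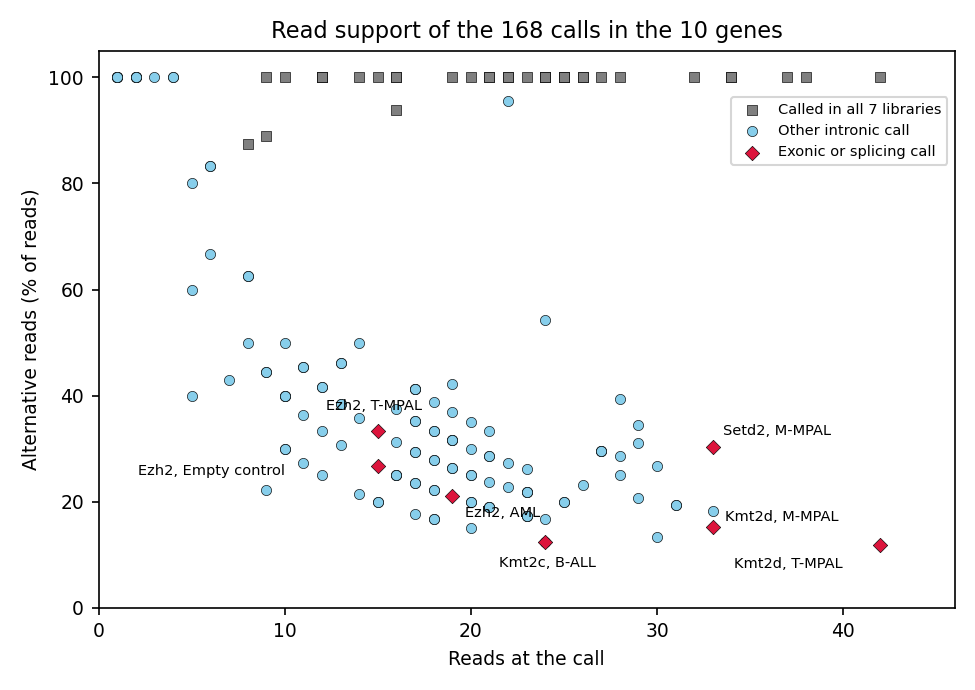
Reads at each of the 168 calls (horizontal axis) against the percent of those reads with the alternative allele (vertical axis), with grey squares for calls in all 7 libraries, blue circles for other intronic calls and red diamonds, named, for exonic and splicing calls. The Setd2 stop in M-MPAL sits at 33 reads and 30.3%, while the coding deletions in Kmt2c and Kmt2d sit at 11.9% to 15.2%.

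Nsd1, which dimethylates H3K36, held 9 intronic INDELs in 109 kb on chr13. AUL had 5 of them, B-ALL, T-ALL and AML 2 each, T-MPAL 1, and M-MPAL and the Empty control 0. A lost CA unit at 55227125 was shared by B-ALL (8 of 27 reads), AML (6 of 31) and AUL (3 of 17). Dot1l, the H3K79 methyltransferase, which lacks the SET domain that the other 9 enzymes share, held 4 calls in 40.4 kb on chr10. At 80766069 a CA unit was lost in B-ALL on 10 of 29 reads, in AML on 5 of 23 and in M-MPAL on 5 of 18, and gained in the Empty control on 4 of 18. Setdb1, which trimethylates H3K9, held 5 calls in 33.7 kb on chr3, and 2 of these were homozygous in every library. They were a C-to-A SNV at 95345876, with 8 to 16 reads and shares of 87.5% to 100%, and a 1-base deletion at 95356705, with 25 to 38 reads and a share of 100% in all 7.

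Per length, the 7 libraries together had 12.5 distinct calls per 100 kb over the 10 genes (10.1 to 15.3). All protein-coding genes together had 18.2 per 100 kb, and the median of 9976 genes of at least 20 kb was 15.4. Kmt2c was at 16.3 (11.5 to 22.5), Kmt2a and Ezh2 at 15.4, Setdb1 at 14.8, Kmt2d at 11.8, Setd2 at 10.4, Dot1l at 9.91, Nsd1 at 8.29 and Ezh1 at 2.83. The high count in Kmt2c was thus near the median gene once length was counted. By kind, the 10 genes had 11.5 INDELs (9.22 to 14.3) and 0.95 SNVs (0.382 to 1.96) per 100 kb, against 15.8 and 2.44 over all protein-coding genes. Both of these pooled values of all genes lay above the intervals of the 10 genes. For genes of at least 20 kb the medians over single genes were 14.1 INDELs and 0 SNVs. Such a median is not the same measure as a rate pooled over 10 genes. No call of the 92 lay in a segmental duplication, while 9.11% of all distinct calls did.

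**Figure D4:**
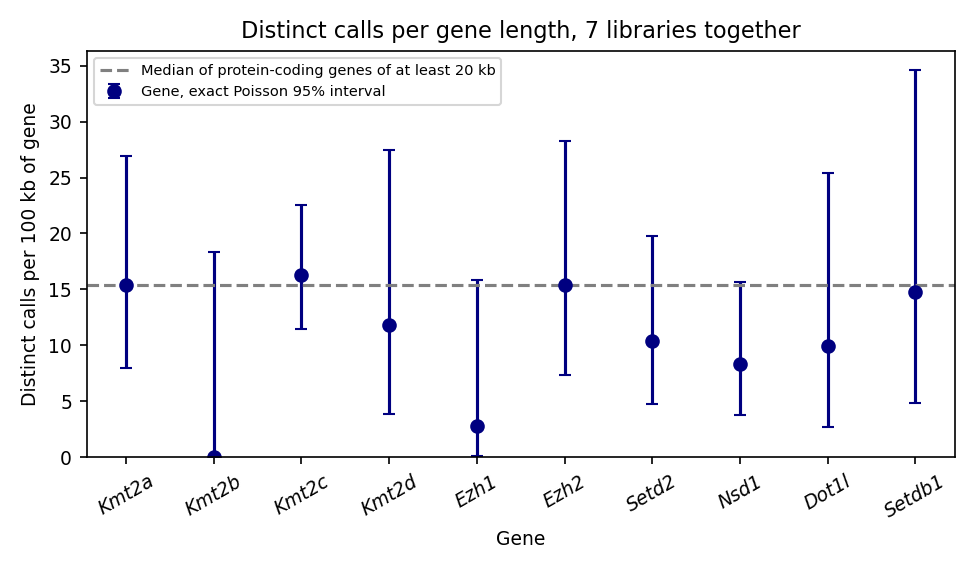
Distinct calls per 100 kb of gene (vertical axis) for each of the 10 genes (horizontal axis), 7 libraries together, with exact Poisson 95% intervals as bars and the median of protein-coding genes of at least 20 kb as the dashed line. Kmt2c, Kmt2a and Ezh2 lie at 15.4 to 16.3, beside the median of 15.4, and Kmt2b is at 0.

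Of the 85 INDELs, 80 (94.1%) lay in annotated repeats, against 97.5% of all INDELs, and 82 lay in a tract of at least 3 repeat units. The unit was AC in 47 and AG in 23. A loss of 2 bases made up 58.8% of them (54.4% of all INDELs) and a gain of 2 bases 15.3% (17.5%), so the changes were mostly of 1 dinucleotide unit. More than 1 allele was called at 15 of the 75 positions. The 107 rows called as heterozygous INDELs had a median share of 27.8%, with 63 under 30% and 4 over 50%, over a range of 11.9% to 83.3%. Counted reads were few for part of the calls: 30 of the 168 rows had under 10 and 11 had 1 or 2. Raw depth at those 11 rows was 17 to 26, so most reads there were not counted.

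Of the 92 distinct calls, 60 were listed by 1 library, 13 by 2, 12 by 3, 1 by 5, 1 by 6 and 5 by all 7. Of the 60, 16 had under 10 reads, which left 44 private calls, 43 of them INDELs, with quality 20.3 to 151 and a median of 32.5. T-ALL held 11 of them (5.49 to 19.7), AUL 9, M-MPAL 8, the Empty control 7 (2.81 to 14.4), AML 4, T-MPAL 3 and B-ALL 2. The Empty control was thus within the range of the leukaemia libraries. No call was present in all 6 leukaemia libraries and absent from the Empty control. Among the 12 calls of 3 libraries, 6 were held by libraries of 2000000 cells alone and 0 by those of 1000000 cells alone. Among the 13 calls of 2 libraries, the counts were 4 and 5. There were 4 libraries of 2000000 cells and 3 of 1000000. The former also listed more INDELs in all (114690 to 132408) than the latter (92306 to 100258). Cell number and the number of calls per library cannot be told apart here, and their part in this sharing was not tested. The 5 calls held by all 7 libraries were homozygous in 35 of 35 rows, and in 32 of these every read was alternative. All 5 are listed in dbSNP.

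Copy number rows were read from 6 libraries, since the AUL table is broken off and was left out. Of the 10 genes, only Kmt2d lay under a row, a gain to 3 copies in both MPAL fractions. Over all protein-coding genes, 3.69% lay under a gain for M-MPAL and 4.06% for T-MPAL. The M-MPAL row ran from 98641001 to 99869000 on chr15 (1.23 Mb, 44 genes named) and began 191 kb from Kmt2d. The T-MPAL row ran from 97289001 to 99825000 (2.54 Mb, 79 genes named). Rows on chr15 summed to 99.6 Mb (M-MPAL) and 101 Mb (T-MPAL), against 0.158 to 0.245 Mb in the other 4 libraries. The gain over Kmt2d was therefore 1 piece of a gain called along chr15 in both MPAL fractions. Both glutamine codon deletions in Kmt2d were called in these same 2 libraries, at shares of 15.2% (M-MPAL) and 11.9% (T-MPAL). In B-ALL, T-ALL, AML and the Empty control the nearest chr15 row was 4.86 Mb away.

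**Figure D5:**
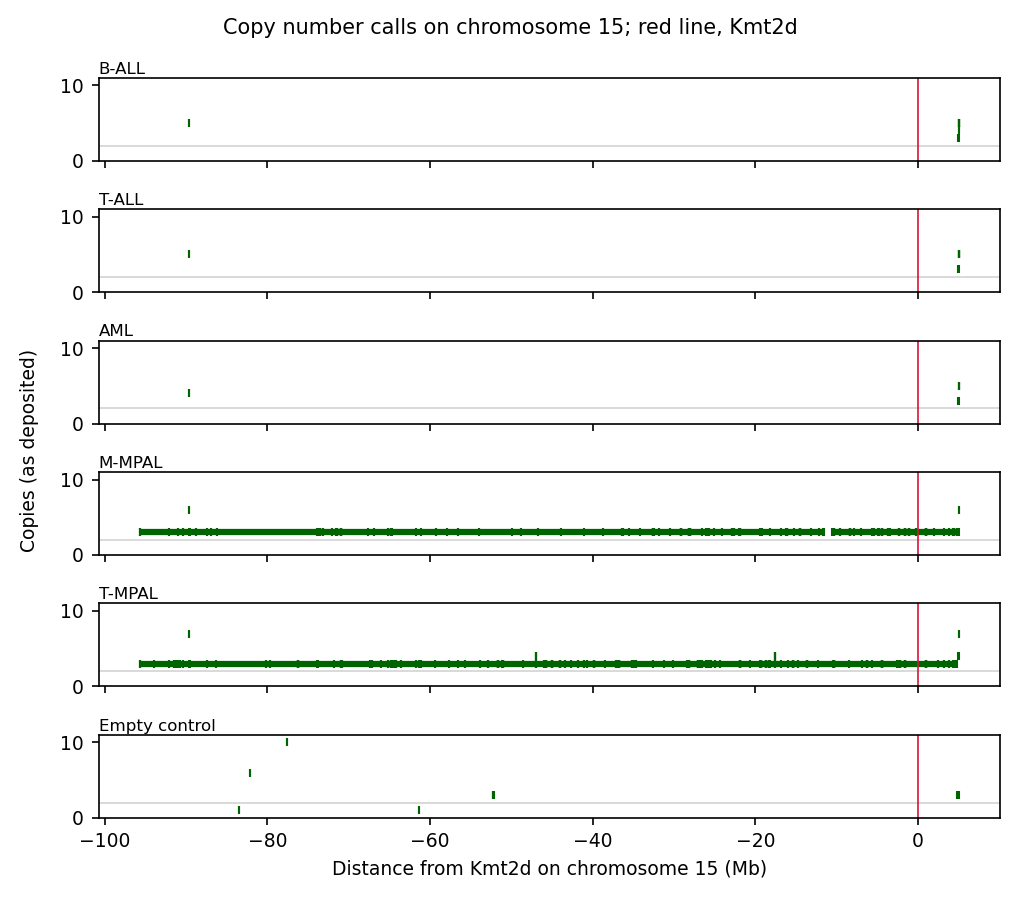
Deposited copy number (vertical axis, copies) of each called row on chromosome 15 against distance from Kmt2d in Mb (horizontal axis) in the 6 libraries with a whole table, with the red line at Kmt2d and the grey line at 2 copies. Rows run along the chromosome in both MPAL fractions (99.6 and 101 Mb), while the other 4 libraries show 0.158 to 0.245 Mb.

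No loss row covered any of the 10 genes. The share of all genes under a loss ranged from 0.00462% (AML) to 3.86% (M-MPAL), with 3.14% for B-ALL, 0.0462% for T-ALL, 0.0416% for T-MPAL and 0.0324% for the Empty control. For gains it was 3.04% (AML), 2.96% (B-ALL), 0.3% (Empty control) and 0.199% (T-ALL). These shares count genes on X too, where M-MPAL listed losses to 1 copy, and none of the 10 genes lies on X. Of the other 9 genes, Ezh2 had the nearest row, 0.666 Mb away at 3 copies in B-ALL, T-ALL, both MPAL fractions and the Empty control.

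No call was listed in 3 of 28 other histone methyltransferases and in 7 of 30 partners and erasers, against 36.7% of all protein-coding genes. Among genes of 15 to 25 kb it was 20.2%. The lists were not matched to other genes by length, so nothing is read from these shares. In each list, 1 gene held a private protein-altering call in a leukaemia library (0.883% of all genes) and 1 in the Empty control (0.143% of all genes). In the list of methyltransferases, Kmt2e, a member of the Kmt2 family by name, had an in-frame deletion in B-ALL on 2 of 11 reads with quality 31.2. Prdm9, the H3K4 methyltransferase that places meiotic recombination, had N553K in the Empty control on 5 of 20 reads with quality 26.1, at a position listed in dbSNP. Among the partners and erasers, Kdm4a, a demethylase of H3K9 and H3K36, had the missense change S1047L in T-ALL (exon 22, chr4 118138285) on 16 of 28 reads, a share of 57.1% (37.2 to 75.5) with quality 222. Mllt3, a partner of Dot1l in transcription elongation, had an in-frame deletion in the Empty control on 3 of 27 reads with quality 25.1. Beside the stop in Setd2, the Kdm4a change was the only private protein-altering call in these 68 genes with quality of at least 100. Copy number rows covered 8 of these 58 related genes. Rows shorter than 5 Mb covered 3 of them: Kmt5b, which methylates H4K20, and Men1, the menin subunit of Kmt2a and Kmt2b complexes, both in a loss to 1 copy in B-ALL (chr19, 3407001 to 8229000, 4.82 Mb), and Dpy30. Dpy30, a core subunit of the H3K4 complexes, lay under a gain to 3 copies of 0.744 Mb in T-MPAL. A deposited row can be 1 piece of a longer change, as on chr15, and rows next to these are not described here. The other 5, Suv39h1, Rbbp7, Hcfc1, Kdm6a and Kdm5c, lay on X under rows of 6.95 to 22.7 Mb that M-MPAL listed as losses to 1 copy.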

How the data were processed

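Whole-genome libraries of 350 bp fragments were read as paired 150-base reads with 30x planned, per the labels' protocols. The submitters' processing notes list the aligner BWA and the genome build mm10. Variants carry samtools fields and ANNOVAR annotation, and copy number comes from FREEC, per the file headers and names. Their versions and filters were not given in the sources used here. Quality is a score of the deposited tables. Reads and alternative reads are those of the deposited genotype field, and copies those of the deposited FREEC tables.

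The 10 genes and the lists of 28 and 30 related genes were chosen with earlier results of these data known. Rows were matched by gene name. Named were all 10 genes with each exonic or splicing call, intronic calls shared only by both MPAL fractions or only by B-ALL and AML, private intronic calls with at least 4 alternative reads, a share of 0.2 and quality of at least 100 (none met this), and related genes with a private protein-altering call or in a copy number row under 5 Mb. Other intronic calls, including those at sites with several alleles and those held by all libraries, and the 5 related genes under longer rows on X, were chosen after their values were seen.

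Gene spans came from RefSeq (GRCm38.p6), the same build as mm10. Repeat tracts, counted as the run of identical units that holds the change, and sequences came from deposited alleles. The rules for private and for protein-altering calls were tested on simulated tables. A Clopper-Pearson lower bound was checked against a second calculation, and the Poisson intervals were not part of these checks. Alternatives varied depth, quality, repeats, dbSNP, the read share, other alleles and the copy number match. Of the 13 samples listed, 6 integration-site samples were not analysed here. Python 3.11.15, pandas 2.3.3, numpy 2.4.6, scipy 1.17.1 and matplotlib 3.10.9 were used.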

Additional observations from a re-analysis of the deposited data

How the results depend on the processing

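The 37 private calls in the leukaemia libraries fell to 20 with a minimum of 20 reads, 1 with quality of at least 100 and 2 with annotated repeats left out. The 7 in the Empty control fell to 2, 0 and 1 under the same settings. Where no other library could have any call at the position, the leukaemia libraries had 27 and the Empty control 4. The 5 private protein-altering calls in the leukaemia libraries fell to 1 with quality of at least 100, to 1 without annotated repeats, and to 2 with a share of at least 0.2 and 4 alternative reads. They were 4 or 5 with minimums of 5 or 20 reads, without dbSNP entries, or with any allele counted, and the Empty control had 0 under each setting. Both copy number rows over Kmt2d were found by name, by coordinates and at a length of at least 50 kb. No paired analysis was possible because each group has 1 library, and no library could be left out of a group. Depth limits the calls at low shares, and at sites with no call the reads are unknown, so a call in 1 library does not show absence from the others.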
